A study of Mus musculus with 8 samples.

Results

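The genes described here are 8 genes of gap junction proteins and their relatives, the connexins *Gjd2*, *Gjc1*, *Gja10*, *Gja1*, *Gja4* and *Gja5* and the pannexins *Panx1* and *Panx2*. They were chosen by symbol from the deposited gene table and all 8 were present among its 17500 genes. All 8 also passed the filter on low counts that left 16797 genes for testing. RNA had been sequenced from 1 whole-retina library per mouse, with 4 *Rbfox2*-/- mice (labelled Rbfox2 KD, by number M893, M901, M902 and M909) and 4 controls (by number M833, M894, M896 and M898), on a C57BL/6J background at 6 months of age. According to the methods, the *Rbfox2*-/- mice were homozygous for a floxed *Rbfox2* allele and carried a transgene for a Cre recombinase that tamoxifen activates. The study chose this line for its recombination in ganglion, amacrine and probable horizontal cells, and its extent in glia and vessels is not given in the sources used here. The labels give tamoxifen and an interval of 4 months for every library, controls included. The methods also name corn oil as a vehicle and do not say which mice received it. The study's text gives the interval of 4 months for the *Rbfox2*-/- mice. By the same methods, controls were matched in age and carried the floxed allele in heterozygous form. Whether the sequenced controls carried Cre is not given in the sources used here. The study compared the groups to find genes whose retinal RNA depends on Rbfox2, a splicing regulator found in horizontal, amacrine and retinal ganglion cells.

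Connexins assemble into hexameric hemichannels that dock between neighbouring cells and form gap junctions, through which ions and small molecules pass. In the retina, gap junctions form the electrical synapses of rods, cones, bipolar, amacrine, horizontal and ganglion cells, and their strength is adjusted by light and dopamine. Pannexins share the membrane topology of connexins but act mainly as single-membrane channels, and Panx1 is known for the release of ATP.

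Depth was 160630226 to 211283591 counts on genes, and the floor of 3 counts stood for 0.0144 to 0.0189 CPM, the unit of counts relative to the TMM-adjusted library total, counting error only. *Rbfox2* had 53.6 to 59.4 CPM in the libraries labelled Rbfox2 KD and 144 to 157 CPM in controls, and the former were 37.7% of the latter on average. M901 and M902 stood apart on the first principal component (40.5% of the variance) and were the only libraries with high *Xist*, at 1440 and 1739 CPM against 1.71 to 2.22 CPM in the others. High *Xist* is the pattern of female cells, and the methods do not give the sex of the mice. No control showed it, so that differences by sex and by genotype cannot be fully told apart here. M909 stood apart on the second (19.2%), and the summed level of 6 surface epithelium markers (keratins and others) was 80.5 CPM in it and 1.17 to 7.93 CPM elsewhere. For *Gja1*, and for each connexin or pathway gene named for an unadjusted p under 0.05, the value without M901 and M902 is therefore given too. Whether litter or dissection was shared between mice is not stated, so p-values measure only the spread between these mice.

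Rbfox proteins bind a short RNA element that reads TGCATG in the genome. In the GENCODE M21 models (GRCm38), on the transcript with the longest coding sequence, the 3′ UTR of 4 of the 8 genes held this element at least once, against 31.9% of 15145 genes. In them, the 3′ UTR was 1720 bases long in *Gja1*, 1718 in *Gja5*, 4010 in *Panx1* and 1030 in *Panx2*, each above the median of 929 bases over all genes. The sites of *Gja1*, *Panx1* and *Panx2* are shown because they hold the letters of that element. *Gja5* holds it too, and its site is not reported here. The element is in capitals with 10 bases on either side, 5′ to 3′ on the strand of the gene. A match is a description of the sequence and says nothing of binding.
Gja1 (chr10:56390323-56390348, + strand): tcagcttcatTGCATGtaatgtagac
Panx1 (chr9:15005307-15005332, - strand): tttactgaagTGCATGaagagaacac
Panx1 (chr9:15003782-15003807, - strand): acatctggttTGCATGtatgttttaa
Panx2 (chr15:89069901-89069926, + strand): aaaaactctcTGCATGagccagggat
Panx2 (chr15:89069995-89070020, + strand): gcctcctgtcTGCATGccacggggcc

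The element was not in the modelled 3′ UTRs of *Gjd2*, *Gjc1*, *Gja10* and *Gja4*, which were 1428, 406, 221 and 546 bases long. *Gjc1*, *Gja10*, *Gja1* and *Gja4* had their coding sequence in 1 exon, *Gjd2* and *Gja5* in 2, *Panx2* in 3 and *Panx1* in 5. RefSeq promoter windows (250 bases before to 50 after the start, GRCm38.p6) were matched for 6 of the 8 genes, and TGCATG on either strand was in none of the 6, against 11% of 32851 windows.

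None of the 8 genes had a false discovery rate (FDR, Benjamini-Hochberg over all genes tested) under 0.05 in edgeR's quasi-likelihood test, where 11 genes, 0.0655% of those tested, did (0.0298% of those tested in the lower direction). DESeq2, the edgeR likelihood ratio test and limma-voom likewise called 0 of the 8, though DESeq2 gave no FDR for *Gja5*. At an unadjusted p under 0.05 there was 1 gene, *Gja4*, which was lower in *Rbfox2*-/- retinas, against 13.3% of all genes tested, 6.87% in that direction and 6.42% in the other. *Gja4* was also the only one of the 8 whose groups did not overlap, against 7.03% of all genes and 3.39% in that direction. With 1 of 8 genes, neither share can be told from the background. The log2 fold changes (*Rbfox2*-/- minus control throughout) were below 0 for 5 genes and above 0 for 3, with a median of -0.02 against 0.0016 over all genes tested.

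**Figure D1:**
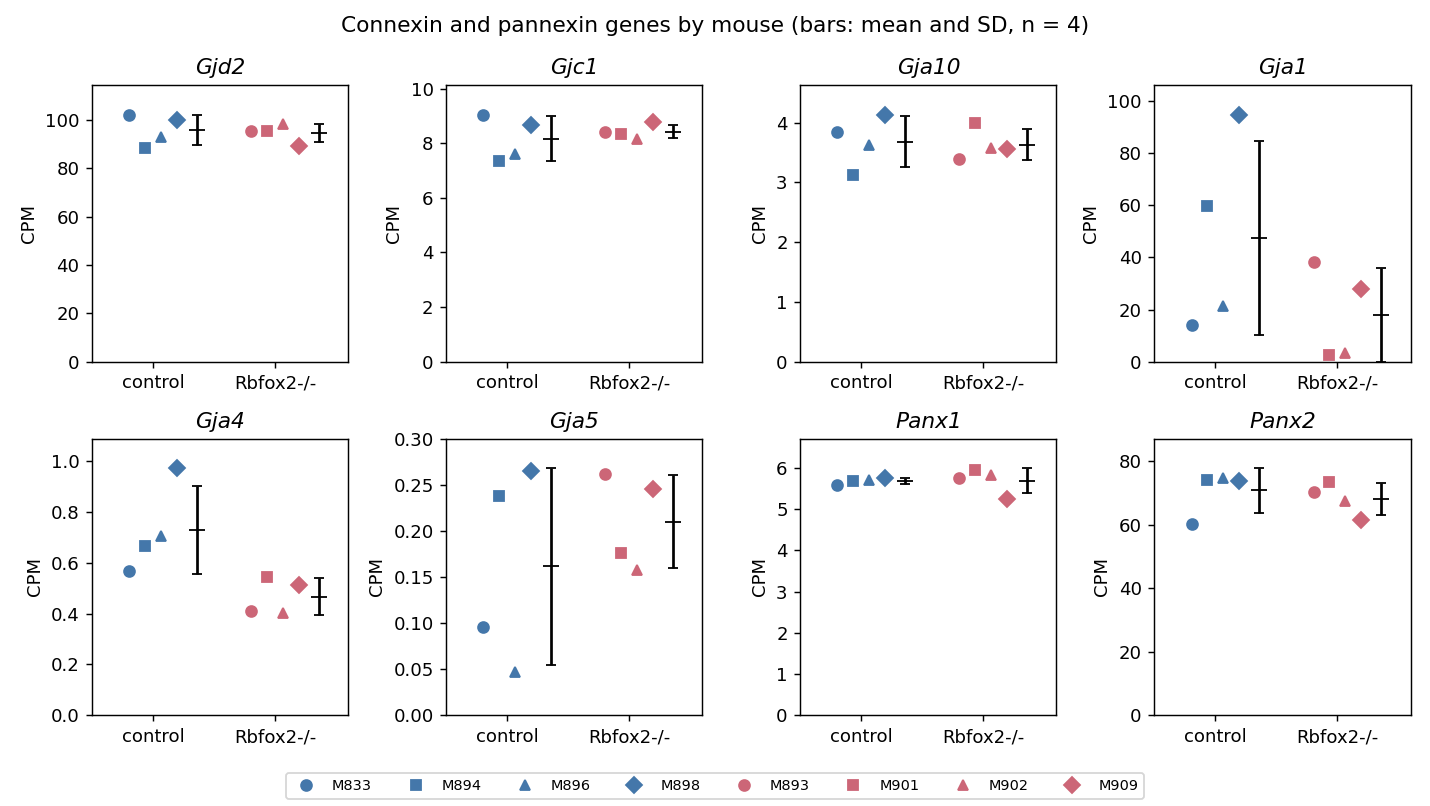
CPM of each connexin and pannexin gene (y axis, from 0) in every control (blue) and *Rbfox2*-/- (red) mouse, 1 symbol per mouse, with the group mean and SD (n = 4) in black. *Gjd2*, *Gjc1*, *Gja10*, *Panx1* and *Panx2* lie close together in all mice, *Gja1* spreads from 2.67 to 94.8 CPM, and every *Rbfox2*-/- point of *Gja4* lies below every control point.

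Levels can be compared between genes only per transcript length, and the deposited FPKM (fragments per kilobase, scaled to library size) were used for this. *Gjd2* had the highest median over the 8 mice, with 33.0 FPKM and a range of 30.8 to 35.3 FPKM. *Panx2* followed with 21.0 FPKM (17.4 to 22.1 FPKM), and the ranges of these 2 genes did not meet. *Gja1* came next by its median of 7.95 FPKM, but its range of 0.850 to 31.0 FPKM overlapped those of *Gjd2*, *Panx2*, *Gjc1*, *Panx1* and *Gja10*, so that its place in the order differed between mice. *Gjc1* had a median of 4.23 FPKM (3.77 to 4.51 FPKM) and lay above *Panx1* (2.77 FPKM, 2.51 to 2.83 FPKM) and *Gja10* (2.37 FPKM, 2.09 to 2.77 FPKM) in every mouse. *Panx1* and *Gja10* overlapped in range. The vascular connexins were lowest, *Gja4* with 0.325 FPKM (0.236 to 0.586 FPKM) and *Gja5* with 0.0652 FPKM (0.0149 to 0.0848 FPKM), and their ranges did not meet.

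**Figure D2:**
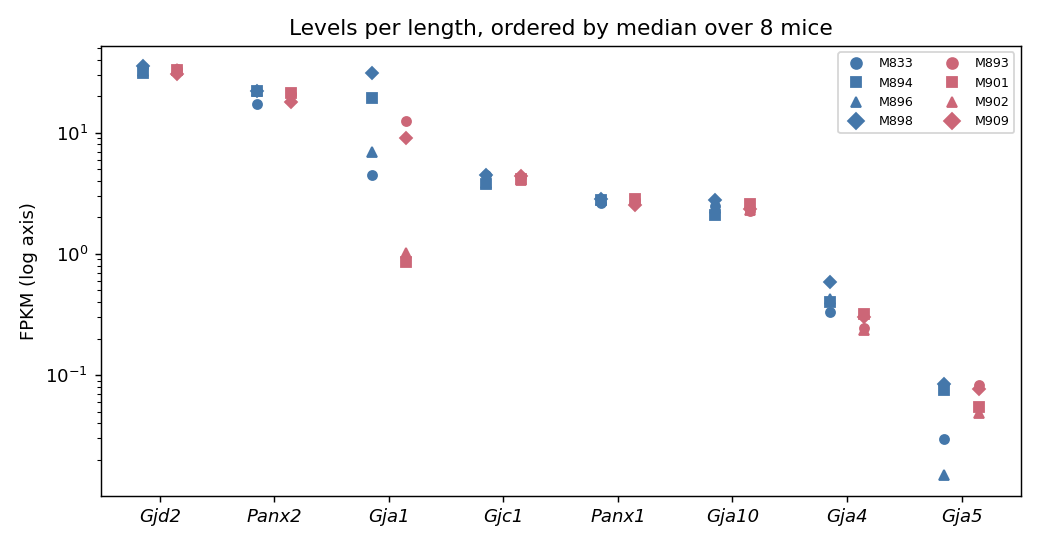
Deposited FPKM (log axis) of the 8 genes, ordered by the median over all 8 mice, controls in blue to the left and *Rbfox2*-/- mice in red to the right of each position. The levels span from 35.3 FPKM for *Gjd2* to 0.0149 FPKM for *Gja5*, and *Gja1* is the only gene whose mice spread over more than a factor of 10.

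*Gjd2* (chr2:114009601-114013619, - strand) encodes Cx36, the connexin of most neuronal electrical synapses, among them those of AII amacrine cells and photoreceptors. For M833, M894, M896 and M898, its control level was 102, 88.4, 93.1 and 99.97 CPM. In the *Rbfox2*-/- mice M893, M901, M902 and M909 it was 95.5, 95.2, 98.4 and 89.2 CPM. All *Rbfox2*-/- values lay within the range of the controls. The *Rbfox2*-/- mean was 94.6 ± 3.87 CPM (SD, n = 4), against 95.9 ± 6.30 CPM in controls (SD, n = 4). The log2 fold change was -0.02 (standard error 0.050, FDR = 0.900 by edgeR), and its 95% interval, as a change of the level, was -8.77% to 6.63%. The gene had 15612 to 21249 counts per library.

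*Gjc1* (chr11:102799579-102819700, - strand) encodes Cx45, which in the retina is found in ON cone bipolar cells and some ganglion cells. The controls had 9.05, 7.36, 7.61 and 8.66 CPM, and the *Rbfox2*-/- mice had 8.41, 8.35, 8.17 and 8.76 CPM. The *Rbfox2*-/- mice again lay inside the control range, with a coefficient of variation of 2.93% against 9.93% in controls. Its log2 fold change was 0.04 (standard error 0.076, FDR = 0.843 by edgeR), with an interval of -0.12 to 0.21.

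*Gja10* (chr4:32596960-32602760, - strand) encodes Cx57, the connexin that couples horizontal cells. Its level was 3.84, 3.13, 3.63 and 4.13 CPM in controls and 3.39, 3.99, 3.57 and 3.56 CPM in *Rbfox2*-/- mice. The groups overlapped fully, and the log2 fold change of -0.02 (standard error 0.10, FDR = 0.954 by edgeR) had an interval of -0.25 to 0.21. Horizontal cell markers were measured beside it. Of 7, *Calb1*, a calcium-binding protein also made by amacrine cells, was lower with 56.3 to 60.5 CPM in *Rbfox2*-/- mice against 73.9 to 78.0 CPM in controls (log2 fold change -0.40, FDR = 0.00341 by edgeR), and no other passed an FDR of 0.05. In all, 6 of the 7 had a log2 fold change below 0 (median -0.06). The transcription factor *Onecut1* had 5.39 to 5.64 CPM in *Rbfox2*-/- mice and 5.91 to 6.21 CPM in controls, without overlap (log2 fold change -0.13, unadjusted p = 0.0527 by edgeR). Of all genes, 3.39% were lower without overlap. *Onecut2* differed by -0.20 (unadjusted p = 0.0759 by edgeR). The exception was *Lhx1*, a transcription factor of horizontal cells, which had 8.86 to 10.4 CPM in *Rbfox2*-/- mice and 7.53 to 8.87 CPM in controls (log2 fold change 0.18, unadjusted p = 0.0376, FDR = 0.353). The listed markers *Lhx1*, *Onecut1* and *Prox1* were present in every library.

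*Gja1* (chr10:56377330-56402513, + strand) encodes Cx43, the main connexin of astrocytes, also made by the ciliary and retinal pigment epithelium and by vascular cells. For M833, M894, M896 and M898, its control level was 14.1, 59.7, 21.3 and 94.8 CPM. In the *Rbfox2*-/- mice M893, M901, M902 and M909 it was 38.3, 2.67, 3.20 and 28.0 CPM. M901 and M902 lay below every other library by a factor of over 4, while M893 and M909 lay within the range of the controls. The highest and lowest mouse differed 35.5-fold, the widest spread of the 8 genes.

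The *Rbfox2*-/- mean of *Gja1* was 18.1 ± 18.0 CPM (SD, n = 4), against 47.5 ± 37.4 CPM in controls (SD, n = 4), or 38.0% of control. This difference was smaller than the spread between mice. By edgeR, the log2 fold change was -1.39 (standard error 0.86, interval -3.32 to 0.53, FDR = 0.520 by edgeR), and the exact two-sided permutation test over the 70 splits of 8 mice into 4 and 4 gave p = 0.229. Without M901 and M902 the log2 fold change was -0.52 (unadjusted p = 0.455 by edgeR), and with 1 surrogate variable in the fit it turned to 0.37 (unadjusted p = 0.120 by edgeR).

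The genes whose log2 CPM followed *Gja1* most closely over the 8 libraries, among 13755 genes with a mean of at least 1 CPM, were *Zic1*, a zinc finger transcription factor (Pearson r = 0.997), and *Tnfrsf1a*, a receptor of tumour necrosis factor (r = 0.996). Without M901 and M902 the coefficients were 0.985 and 0.982 over 6 libraries. *Zic1* had 9.93, 15.7, 12.1 and 18.9 CPM in controls and 13.05, 5.89, 6.44 and 12.7 CPM in *Rbfox2*-/- mice, the same order of mice as *Gja1* among controls. These coefficients were picked as the highest of many and share the libraries that stand apart, so that they are descriptions.

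Some markers of cells around the neural retina were low in the same mice as *Gja1*, and others were not. Of 8 markers of ciliary and pigment epithelium, 7 had a log2 fold change below 0, 2 had an unadjusted p under 0.05 (*Best2* and *Pmel*, both lower), none had an FDR under 0.05, and the median was -1.20. Among all genes tested, 6.87% were lower at that unadjusted p. *Best2*, a chloride channel of the ciliary epithelium, had 5.13, 7.31, 7.12 and 16.03 CPM in controls and 4.26, 0.150, 0.208 and 4.14 CPM in *Rbfox2*-/- mice. *Slc13a4*, an anion transporter, had 10.4, 19.7, 12.1 and 21.9 CPM in controls and 16.2, 1.48, 1.29 and 13.6 CPM in *Rbfox2*-/- mice. Both were lowest in M901 and M902 and highest in M898, as was *Gja1*.

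The melanosome gene *Pmel* was likewise highest in M898 and M894 (51.7 and 21.7 CPM, the mice with the most *Gja1*) and lowest in M901 and M902 (1.69 and 2.71 CPM), with 2.87 CPM in M833 close to the latter. *Rpe65*, the visual cycle isomerase of the retinal pigment epithelium, did not follow the pattern, with 7.45 CPM in M901, 12.3 CPM in M902 and 9.35 to 20.1 CPM in the other 6 mice. Neither did *Ttr*, the transthyretin gene of these epithelia, with 31.5 CPM in M901, 55.0 CPM in M902, 90.6 CPM in M909 and 30.0 to 57.5 CPM in controls (log2 fold change 0.39), or *Best1*, with 1.03 CPM in M901 and 0.826 CPM in M902 against 0.846 to 1.48 CPM in controls. *Tyr* and *Mlana*, also on this list, had log2 fold changes below the -0.98 of *Slc13a4*, and neither had an unadjusted p under 0.05 by edgeR. The summed level of the 8 markers was 44.6 to 139 CPM in *Rbfox2*-/- mice and 68.5 to 173 CPM in controls, and no marker was at 0 in any library. Markers of Muller glia and astrocytes varied less, with 2 of 9 lower at an unadjusted p under 0.05 (*Glul* and *Dkk3*), none at an FDR under 0.05 and a median log2 fold change of -0.14. At that unadjusted p, 6.87% of all genes tested were lower. The 9 genes summed to 4909 to 5310 CPM in *Rbfox2*-/- mice and 5351 to 5873 CPM in controls, without overlap. *Glul* weighed most in these sums, with a mean of 3002 CPM in *Rbfox2*-/- mice and 3384 CPM in controls. Its groups did not overlap either, as in 3.39% of all genes in that direction. The astrocyte filament *Gfap* had 7.97 CPM in M901 and 11.3 CPM in M902 against 7.19 to 11.03 CPM in controls. The part of these cell types in the *Gja1* values was not tested, and in whole retina fewer cells of a type and less RNA per cell cannot be told apart.

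**Figure D3:**
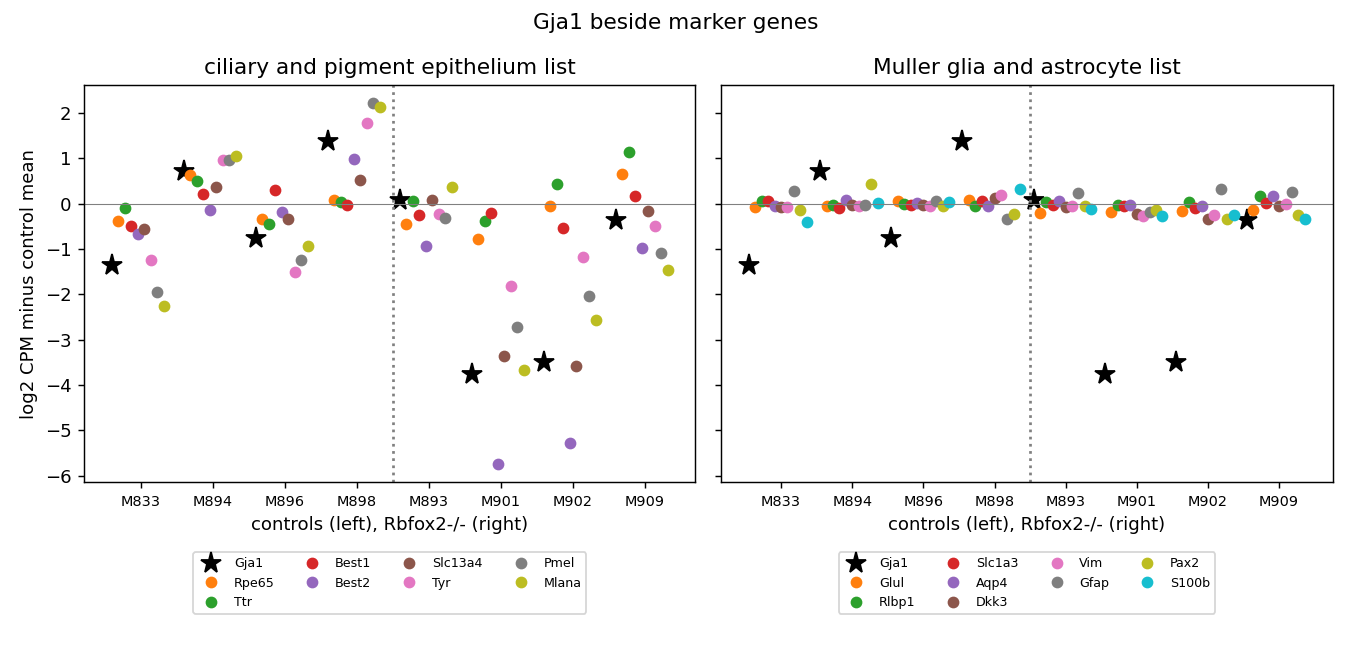
Log2 CPM minus the control mean (y axis) for *Gja1* (stars) and each tested marker of ciliary and pigment epithelium (left panel) and of Muller glia and astrocytes (right panel), by mouse, with controls left of the dotted line. *Best2* and *Slc13a4* drop with *Gja1* in M901 and M902, whereas the glial markers vary less.

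*Gja4* (chr4:127311421-127314039, - strand) encodes Cx37, a connexin of arterial endothelium. The controls M833, M894, M896 and M898 had 0.567, 0.667, 0.705 and 0.971 CPM, which are 118, 118, 135 and 172 counts. The *Rbfox2*-/- mice M893, M901, M902 and M909 had 0.409, 0.545, 0.403 and 0.511 CPM, from 72, 105, 64 and 98 counts. Every *Rbfox2*-/- mouse was below every control, with M901 (0.545 CPM) and M833 (0.567 CPM) nearly touching.

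The *Rbfox2*-/- mean of *Gja4* was 0.467 ± 0.0715 CPM (SD, n = 4), against 0.728 ± 0.172 CPM in controls (SD, n = 4), or 64.2% of control. The log2 fold change was -0.64 (standard error 0.21, interval -1.09 to -0.18) with an unadjusted p of 0.0114 and an FDR of 0.266 by edgeR, so that it did not pass the test over all genes. The exact two-sided permutation test gave p = 0.0286, the smallest that 4 mice against 4 allow. With each mouse left out in turn the unadjusted p by edgeR lay between 0.00621 and 0.0390. Without M901 and M902 the log2 fold change was -0.66 (unadjusted p = 0.0377 by edgeR), and with 1 surrogate variable it was -0.53 (unadjusted p = 0.0862 by edgeR).

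The genes most alike to *Gja4* over the 8 libraries were *Slc35f2*, a solute carrier (r = 0.964), and *Sema3g*, a semaphorin of arterial endothelium (r = 0.951), among 13756 candidates. *Sema3g* had 3.73, 4.46, 4.85 and 5.11 CPM in controls and 3.55, 3.90, 3.24 and 3.78 CPM in *Rbfox2*-/- mice, in the same order of controls as *Gja4* but with overlapping groups.

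Markers of arterial endothelial cells lay lower in *Rbfox2*-/- retinas together with *Gja4*. All 6 had a log2 fold change below 0 (median -0.45), 3 of them with an unadjusted p under 0.05 (*Sox17*, *Gkn3* and *Mgp*) and none with an FDR under 0.05. Of all genes tested, 6.87% were lower at that unadjusted p. *Mgp*, the matrix Gla protein, had 2.63, 2.20, 2.44 and 1.98 CPM in *Rbfox2*-/- mice against 3.77, 4.29, 4.57 and 5.89 CPM in controls (log2 fold change -1.003, FDR = 0.0568 by edgeR). *Sox17*, a transcription factor of arterial identity, had 1.55, 1.61, 1.59 and 1.75 CPM against 2.25, 2.35, 2.41 and 2.85 CPM (log2 fold change -0.60, FDR = 0.0853 by edgeR). Neither gene overlapped between the groups, as in 3.39% of all genes in that direction, and M898 was the highest mouse for *Gja4*, *Mgp* and *Sox17*. In contrast, *Efnb2* had 28.4 to 42.2 CPM against 37.4 to 41.3 CPM and *Hey1* had 12.8 to 14.1 CPM against 12.9 to 15.4 CPM, with overlapping groups.

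Of 9 general endothelial markers, 8 had a log2 fold change below 0 (median -0.28), 4 of them with an unadjusted p under 0.05, and of 8 tested mural cell markers 7 were below 0 (median -0.47), 5 with an unadjusted p under 0.05. The share of all genes tested that were lower at that p was 6.87%. The smooth muscle myosin *Myh11* was highest in M898 with 13.4 CPM, against 2.29 to 4.94 CPM in the other controls and 1.198 to 2.89 CPM in *Rbfox2*-/- mice. The mural marker *Rgs5*, highest in M894, had 13.2 to 15.6 CPM against 16.6 to 21.2 CPM in controls (FDR = 0.176 by edgeR). The endothelial marker *Flt1* had 98.5 to 121 CPM against 129 to 139 CPM (FDR = 0.145 by edgeR). Neither overlapped between the groups, as in 3.39% of all genes in that direction. *Pdgfrb* and *Cldn5* overlapped, with log2 fold changes of 0.01 and 0.02. Summed levels were 47.2 to 61.5 CPM in *Rbfox2*-/- mice and 59.1 to 66.6 CPM in controls for the arterial list, 306 to 384 CPM and 364 to 380 CPM for the endothelial list, and 40.8 to 54.5 CPM and 51.1 to 72.0 CPM for the mural list. Such sums follow the most abundant genes, with control means of 39.4 CPM for *Efnb2*, 192 CPM for *Kdr* and 134 CPM for *Flt1*. *Sox17* and *Mgp*, with control means of 2.47 and 4.63 CPM, weigh little in them. The part of vessel content in the *Gja4* values was not tested.

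**Figure D4:**
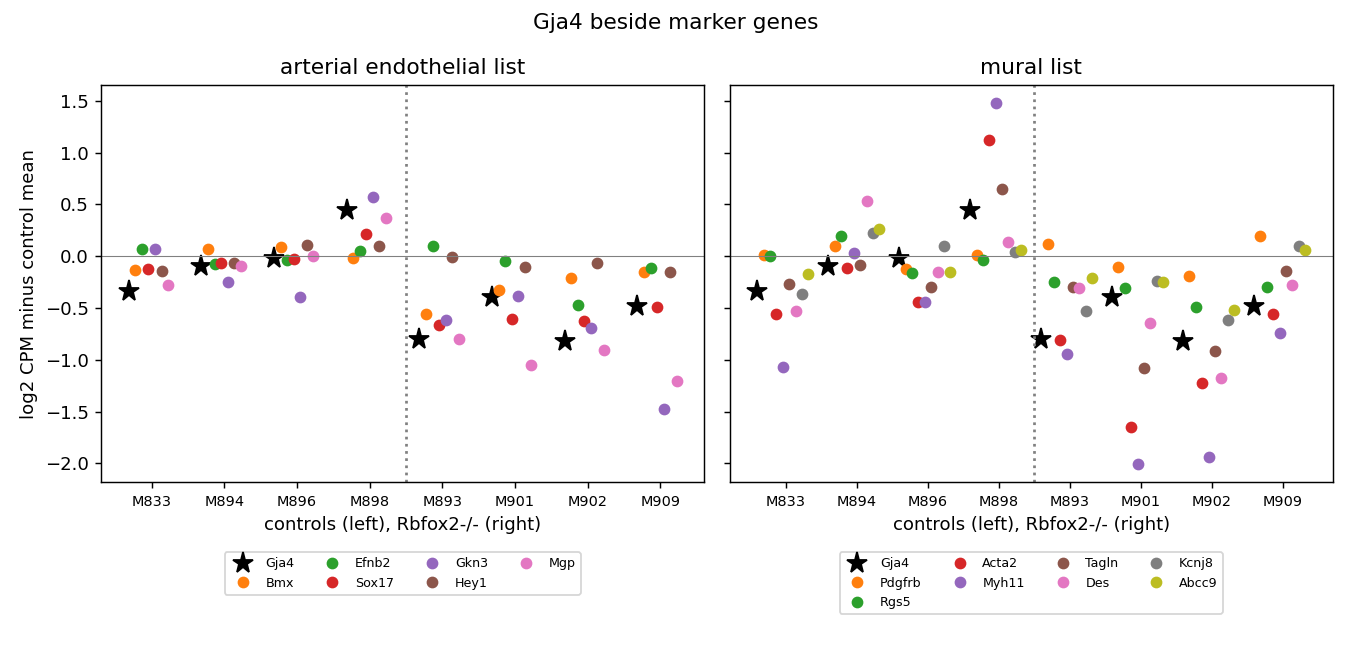
Log2 CPM minus the control mean (y axis) for *Gja4* (stars) and each tested marker of arterial endothelial cells (left panel) and mural cells (right panel), by mouse, with controls left of the dotted line. *Gja4* is below 0 in all 4 *Rbfox2*-/- mice, as are *Sox17* and *Mgp*, and *Myh11* and *Acta2* are highest in M898.

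*Gja5* (chr3:96904693-97077416, + strand) encodes Cx40, the other main connexin of arterial endothelium. It was close to the limit of detection. The controls had 20, 42, 9 and 47 counts (0.0961, 0.238, 0.0470 and 0.265 CPM) and the *Rbfox2*-/- mice had 46, 34, 25 and 47 counts (0.261, 0.176, 0.158 and 0.245 CPM). M833 and M896 were the low mice, and all *Rbfox2*-/- values lay within the control range. Its log2 fold change was 0.39 (standard error 0.47, FDR = 0.758 by edgeR), with an interval of -0.66 to 1.44, so that a difference of the size seen for *Gja4* in either direction was not detectable for this gene. *Gja4* and *Gja5* had log2 fold changes of opposite sign, which was not tested as a difference, and their log2 CPM had a Pearson r of -0.099 over the 8 libraries.

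*Panx1* (chr9:15002128-15045478, - strand), the ATP-releasing pannexin, had the narrowest spread of the 8 genes, with a highest mouse 1.13 times the lowest. Its level was 5.58, 5.68, 5.69 and 5.76 CPM in controls and 5.74, 5.93, 5.82 and 5.25 CPM in *Rbfox2*-/- mice. M909 was the lowest mouse and M901 the highest. The log2 fold change was 0.0012 (standard error 0.065, FDR = 0.995 by edgeR), and its interval, as a change of the level, was -9.52% to 10.7%. The sign of so small a value depended on the normalization and on single mice.

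*Panx2* (chr15:89059734-89073567, + strand) encodes a pannexin of neurons that is largely intracellular. The controls had 60.4, 74.3, 74.8 and 73.9 CPM and the *Rbfox2*-/- mice had 70.2, 73.4, 67.4 and 61.5 CPM. M833 stood below the other controls, and M909 was nearly as low. Its log2 fold change was -0.06 (standard error 0.076, interval -0.23 to 0.11, FDR = 0.791 by edgeR). Without M833 it was -0.13 (unadjusted p = 0.0487, FDR = 0.282 by edgeR).

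The gene most alike to *Panx2* was *Nefh*, the heavy neurofilament (r = 0.997 over 8 libraries), which had 88.1, 131, 131 and 129 CPM in controls and 120, 126, 108 and 92.3 CPM in *Rbfox2*-/- mice. Next was *Epb4.1l1*, a protein that links the membrane to the cytoskeleton in neurons (r = 0.988). Markers of retinal ganglion cells were low in the same mice as *Panx2*. Their 9 genes summed to 720 CPM in M833 and 908 CPM in M909, and to 1053 to 1200 CPM in the other 6 mice, with 0 of 9 at an unadjusted p under 0.05 and a median log2 fold change of 0.04. *Pou4f1*, a transcription factor of ganglion cells, had 23.7 CPM in M833 and 30.6 CPM in M909 against 36 to 41.9 CPM elsewhere. The part of ganglion cell content in the *Panx2* values was not tested.

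**Figure D5:**
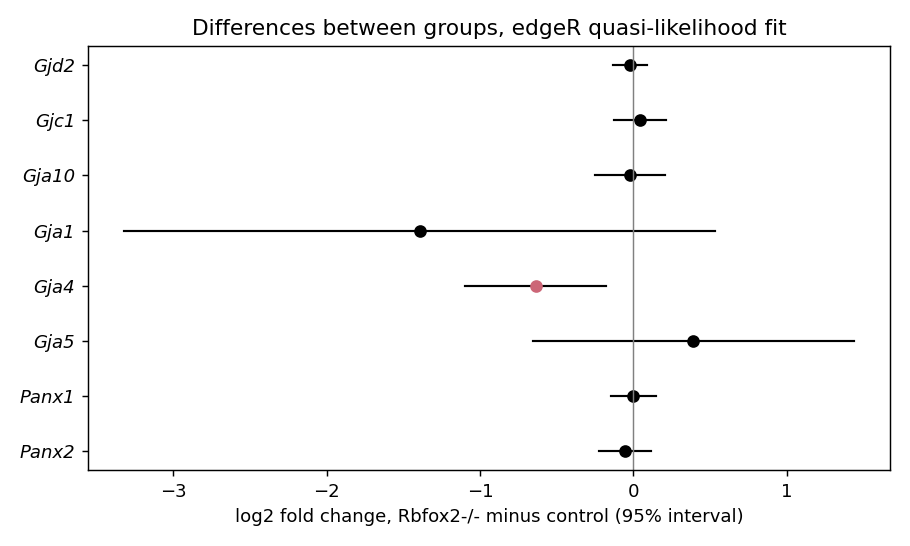
Log2 fold change (*Rbfox2*-/- minus control, x axis) of the 8 genes with the 95% interval from the edgeR fit. The red point marks *Gja4*, the gene whose groups did not overlap. Only its interval leaves out 0, and the intervals of *Gja1* (-3.32 to 0.53) and *Gja5* (-0.66 to 1.44) are the widest.

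For the remaining genes, the closest in pattern were *B3gnt5* and *Fbxo33* for *Gjd2* (r = 0.968 and 0.955), *Tarsl2* and *Tph2* for *Gjc1* (r = 0.924 and 0.908), *Zfp955a* and *Mynn* for *Gja10* (r = 0.982 and 0.960), *Toporsos* and *Ephx2* for *Gja5* (r = 0.983 and 0.938), and *Map6* and *Nub1* for *Panx1* (r = 0.967 and 0.967), over the same 8 libraries. Among the 8 genes themselves, the highest coefficient was that of *Gjd2* with *Gja10* (r = 0.68) and the lowest that of *Gjc1* with *Panx2* (r = -0.70).

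Of 15 other connexins and pannexins listed, 8 were in the table, and none of the 8 had an FDR under 0.05. *Gjb6*, which encodes Cx30, a second connexin of astrocytes, had 0.168, 0.221, 0.141 and 0.277 CPM in controls (27 to 49 counts) and 0.0682, 0.0726, 0.0693 and 0.0677 CPM in *Rbfox2*-/- mice (11 to 14 counts). All *Rbfox2*-/- mice lay below all controls, as in 3.39% of all genes, and M901 and M902 lay close to M893 and M909. The log2 fold change was -1.52 (standard error 0.29, unadjusted p = 0.000371, FDR = 0.102 by edgeR). The edgeR likelihood ratio test put it past the threshold (FDR = 0.00188), DESeq2 gave it no FDR, and without M901 and M902 it was -1.56 (unadjusted p = 0.00539 by edgeR).

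*Gjb2*, which encodes Cx26, had 0.870, 1.09, 0.710 and 1.72 CPM in controls and 0.602, 0.436, 0.529 and 0.797 CPM in *Rbfox2*-/- mice. The groups overlapped through M909, and the log2 fold change was -0.89 (standard error 0.29, unadjusted p = 0.0117, FDR = 0.268 by edgeR). Without M901 and M902 it was -0.65 (unadjusted p = 0.102 by edgeR), with 1 surrogate variable -0.39 (unadjusted p = 0.208 by edgeR), and without the control M898 -0.59 (unadjusted p = 0.0370 by edgeR). The other 6 had an unadjusted p over 0.05. Among them, *Gje1* was at 0.301 to 0.479 CPM, *Panx3* at 0.113 to 0.395 CPM, *Gjd3* at 0.0756 to 0.235 CPM and *Gjb1* at 0.0227 to 0.135 CPM. The median log2 fold change of the 8 was -0.17, with 2 lower and 0 higher at an unadjusted p under 0.05, against 6.87% and 6.42% of all genes tested.

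All 20 listed scaffold proteins and regulators of gap junctions were tested, and 0 had an FDR under 0.05 in the quasi-likelihood test. At an unadjusted p under 0.05, 1 was higher and 5 were lower, with a median log2 fold change of -0.03. Over all genes tested the shares were 6.42% higher and 6.87% lower. *Tjp1* (ZO-1, the scaffold that binds the tail of several connexins) had 173 to 198 CPM in *Rbfox2*-/- mice and 173 to 190 CPM in controls. *Camk2b*, a subunit of the calcium/calmodulin kinase that phosphorylates Cx36, had 204, 190.4, 201 and 198 CPM in *Rbfox2*-/- mice and 218, 215, 218 and 213 CPM in controls. Its groups did not overlap, as in 3.39% of all genes in that direction, but the log2 fold change was small at -0.12 (standard error 0.032, FDR = 0.192 by edgeR). *Camk2a*, another subunit of that kinase, had 55.3 to 59.3 CPM against 59.2 to 72.9 CPM (log2 fold change -0.22, FDR = 0.199 by edgeR), with overlap through M833 alone, and without M833 its FDR was 0.0446 by edgeR.

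DESeq2 put *Camk2a*, *Camk2b* and *Tjp3* past an FDR of 0.05 (0.0242, 0.0129 and 0.0442), with log2 fold changes of -0.22, -0.12 and -0.34. *Tjp3* (ZO-3) had a log2 fold change of -0.34 also in edgeR (FDR = 0.237). *Drd4*, the dopamine receptor of photoreceptors that modulates their coupling, had 157 to 198 CPM against 171 to 224 CPM (log2 fold change -0.23, FDR = 0.344 by edgeR). *Prkacb*, a catalytic subunit of protein kinase A, differed by -0.10 (FDR = 0.337 by edgeR), and *Dlg1*, a scaffold protein, by 0.16 (FDR = 0.239 by edgeR). Without M901 and M902 the log2 fold change was -0.25 for *Camk2a* (unadjusted p = 0.0148 by edgeR) and -0.11 for *Camk2b* (unadjusted p = 0.0307 by edgeR). For *Tjp3* it was then -0.25 (unadjusted p = 0.0736 by edgeR), for *Drd4* -0.19 (unadjusted p = 0.157 by edgeR), for *Prkacb* -0.11 (unadjusted p = 0.0859 by edgeR) and for *Dlg1* 0.096 (unadjusted p = 0.117 by edgeR). With 1 surrogate variable *Dlg1* was at 0.088 (unadjusted p = 0.125 by edgeR).

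Pannexin channels release ATP, which acts on purinergic receptors and is broken down by ectonucleotidases. All 17 listed genes of these groups were tested, 15 had a log2 fold change below 0 (median -0.17), 3 were lower and 0 higher at an unadjusted p under 0.05, and 0 had an FDR under 0.05 by edgeR or by DESeq2 for these 3. At that unadjusted p, 6.87% of all genes tested were lower and 6.42% higher. *P2ry6*, a receptor of UDP, had 0.256 to 0.417 CPM in *Rbfox2*-/- mice and 0.392 to 0.644 CPM in controls (log2 fold change -0.64, FDR = 0.284 by edgeR). The ectonucleotidase *Entpd1*, found on vessels and microglia, differed by -0.39 (FDR = 0.293 by edgeR), with 1.82 to 1.97 CPM in M901, M902 and M909, 2.74 CPM in M893 and 2.55 to 3.10 CPM in controls. The related *Entpd3* had 8.84 to 10.5 CPM against 9.98 to 11.4 CPM (log2 fold change -0.22, FDR = 0.268 by edgeR). Without M901 and M902 the log2 fold change was -0.56 for *P2ry6* (unadjusted p = 0.0991 by edgeR), -0.29 for *Entpd1* (unadjusted p = 0.144 by edgeR) and -0.26 for *Entpd3* (unadjusted p = 0.0129 by edgeR).

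Of 10 other large-pore channel genes listed, 8 were tested and 0 had an FDR under 0.05 by edgeR, with a median log2 fold change of -0.05. *Lrrc8e*, a subunit of the volume-regulated anion channel, had 1.66 to 1.88 CPM in *Rbfox2*-/- mice and 1.33 to 1.499 CPM in controls (log2 fold change 0.30, unadjusted p = 0.0163, FDR = 0.283 by edgeR). The groups did not overlap, which was the case in 3.64% of all genes in that direction. Its log2 fold change was 0.24 without M901 and M902 (unadjusted p = 0.112 by edgeR) and 0.23 with 1 surrogate variable (unadjusted p = 0.118 by edgeR). *Lrrc8a*, the subunit that this channel requires, had 73.5 to 85.1 CPM against 78.5 to 86.8 CPM, with overlapping groups.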

How the data were processed

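Whole-retina RNA of 8 mice was measured, 4 per group. The authors aligned paired reads to mm10 with STAR and deposited HTSeq counts per gene without normalization. Per the labels, processing also used CASAVA 1.8.2. The methods name a RefSeq and an Ensembl annotation, and the strand setting is not given in the sources used here. The authors deposited FPKM values as well, which were used only to compare levels between genes. Not used were 16 other per-sample columns and the columns of the authors' own comparison (fold changes, p-values and FDR).

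Groups came from the genotype labels. In each row of the table, 4 or more libraries held 5 counts or more. The main test was the quasi-likelihood test of edgeR 4.0.16 (R 4.3.3) with no covariate, after filterByExpr (16797 genes kept) and TMM scaling. The FDR is that of Benjamini and Hochberg, and intervals are 95%. Single genes were also compared by an exact permutation test over 70 splits. Likeness was the Pearson r of log2 CPM (prior count 2). The procedure was tested on simulated data.

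Alternatives were DESeq2 1.42.0, the likelihood ratio test, limma-voom (limma 3.58.1), upper-quartile and DESeq2 size factors, no filter, a minimum of 10 counts in each library, omission of each mouse, omission of M901 and M902, and 1 surrogate variable (sva 3.50.0). The rule named all 8 genes, the other listed connexins and pannexins (some are not reported here), genes of the other pathway lists with an unadjusted p under 0.05, the 2 genes most alike to each, and markers by list. *Tjp1*, *Lrrc8a* and marker examples were named after their values were seen. The genes and lists were chosen with earlier results of these data known. Every pair of libraries differed by more than sampling noise.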

Additional observations from a re-analysis of the deposited data

Results flagged for a closer look

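*Panx2* in the control M833 had 60.4 CPM, which lay apart from the other controls at 73.9 to 74.8 CPM. The gap to the nearest of them was 0.937 of the range of the 4 controls, above Dixon's 95% critical value for 4 samples. Among the 18 groups examined (8 genes and *Rbfox2*, in controls and *Rbfox2*-/- mice) 1 stood out, and chance gives about 1 in 20. The retinal ganglion cell markers summed to 720 CPM in M833 against 1120 to 1170 CPM in the other controls.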

How the results depend on the processing

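None of the 8 connexin and pannexin genes had an FDR under 0.05 under any alternative. Over all genes, the number under 0.05 was 11 with the quasi-likelihood test, 465 with DESeq2, 164 with the likelihood ratio test, 5 with 1 surrogate variable, 1 without M901 and M902, and 5 to 35 with each mouse left out in turn. The number of the 8 at an unadjusted p under 0.05 was 1, and 0 with 1 surrogate variable, where *Gja4* had an unadjusted p = 0.0862 by edgeR. With each mouse left out it was 1 to 2, the higher number without M833, where *Panx2* had an unadjusted p = 0.0487 by edgeR. The log2 fold change of *Gja1* turned from -1.39 to 0.37 with 1 surrogate variable. That of *Panx1*, 0.0012, turned to -0.00092 with limma-voom, -0.0060 with upper-quartile normalization, -0.051 without M901 and M902, and -0.043 with 1 surrogate variable. With each mouse left out, log2 fold changes ran from -0.057 to 0.0088 for *Gjd2*, -0.0027 to 0.094 for *Gjc1*, -0.091 to 0.039 for *Gja10*, -2.07 to -0.81 for *Gja1* (-0.81 without M898), -0.74 to -0.47 for *Gja4*, 0.083 to 0.74 for *Gja5* (0.083 without M896), -0.021 to 0.038 for *Panx1* and -0.13 to -0.010 for *Panx2*. The causes were not tested. *Gja5* has no value with at least 10 counts in every sample, and no FDR by DESeq2. Of 339 single-gene values under alternatives, 319 kept their direction and side of the threshold. Of the pathway genes named at an unadjusted p under 0.05, *Tjp3*, *Drd4*, *Prkacb*, *Dlg1*, *P2ry6*, *Entpd1*, *Lrrc8e* and *Gjb2* were over it without M901 and M902. That fit has fewer *Rbfox2*-/- mice, and the standard errors of these genes were larger in it. In size, the log2 fold changes of *Tjp3*, *Drd4*, *Dlg1*, *P2ry6*, *Entpd1*, *Lrrc8e* and *Gjb2* were also smaller there than with all mice. *Gjb2*, for example, was at -0.65 against -0.89 and *Dlg1* at 0.096 against 0.16. Only *Prkacb* was not smaller, at -0.106 (standard error 0.054) against -0.097 (standard error 0.039) with all mice. Whether the number of mice or the size of the difference moved these p-values was not tested. For pathway genes other than connexins these alternatives were chosen after seeing the data. No paired analysis was possible because the labels give no replicate numbers that the groups share. *Gja5* had 9 to 47 counts per library and *Gjb6* 11 to 49, so that counting error is a larger share of their values than for *Gjd2* with 15612 or more.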

Other observations

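The other marker lists gave these values. At an unadjusted p under 0.05 by edgeR, 0 of 7 amacrine cell genes, 0 of 6 microglial genes, 2 of 8 bipolar cell genes (both lower), 3 of 8 cone genes (2 higher, 1 lower), 3 of 8 rod genes (all higher) and 1 of 6 tested lens genes (lower) were called, and none had an FDR under 0.05. The median log2 fold changes were -0.05 for the amacrine, -0.10 for the microglial, -0.07 for the bipolar, 0.11 for the cone, 0.08 for the rod and -0.07 for the lens list. Of the surface epithelium list, 4 of 5 tested genes were higher at an unadjusted p under 0.05, with the highest values in M909. Over all genes tested, 6.42% were higher and 6.87% lower at that p.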
